A study of Mus musculus with 21 samples.

Results

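The genes examined here are the apolipoproteins and the enzymes that build and remodel lipoprotein particles in mouse liver: Apob, Mttp, Apoa1, Apoa4, Apoa5, Apoc3, Apoe, Lipc, Pltp and Lcat. A gene was taken where a probe set of the array carried its symbol and no other. That held for 9 of the 10 genes, with 16 of the 45101 probe sets, and Lipc, hepatic lipase, was not analysed here. The 9 genes stood among 18193 genes, each measured by its brightest probe set.

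Female NMRI mice, an outbred stock, received SPC3372 or saline on day 2, the drug at 25 mg per kg. SPC3372 is an antimiR, a locked nucleic acid oligonucleotide that binds and blocks microRNA-122, the most abundant microRNA of hepatocytes. On day 3, 9 or 23 the mice were killed, 3 given the drug and 3 given saline at each time and 18 in all, and total RNA of the whole liver was hybridised to Affymetrix mouse arrays. Some mouse numbers in the labels appear at both day 3 and day 9; as each mouse was killed for its liver, they were counted as separate animals. The 21 arrays came in array set p0617 (15 arrays, days 3 and 9 and a first array of each treated day 23 mouse) and array set p0621 (6 arrays, the day 23 comparison). Each main comparison of treated with saline mice therefore stayed within 1 set. Saline mice of day 23 had p0621 arrays only, so setting the p0617 arrays of day 23 against them crosses the sets. All values are log2 expression values, differences are antimiR minus saline, and a call is an adjusted p under 0.05 from limma over all 18193 genes.

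As background, the liver packs triglyceride and cholesterol ester around a single copy of apolipoprotein B to make very low density lipoprotein. Mttp, the microsomal triglyceride transfer protein, loads lipid onto the nascent apolipoprotein B chain, and without it the chain is degraded. High density lipoprotein forms on apolipoprotein A-I, and plasma enzymes and the exchangeable apolipoproteins then remodel both kinds of particle and steer their uptake; blocking microRNA-122 is known to lower plasma cholesterol in mice.

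Apob was the member that changed: it was higher in antimiR than in saline livers by 1.98-fold at day 9 and passed the test there. Its difference at day 23 was 1.57-fold in the same direction and missed the threshold, and at day 3 the groups overlapped. Mttp and the other 7 measured members passed no test at any day, with Apoa4 (lower at days 9 and 23) and Pltp (higher at day 3) holding the next largest differences. The known microRNA-122 targets Aldoa, a glycolytic aldolase, and Bckdk, a kinase of branched-chain ketoacid breakdown, were higher in treated livers by 1.76-fold and 2.22-fold at day 3 (adjusted p = 2.29e-05 and 2.38e-05). At day 9 they were higher by 1.71-fold and 2.09-fold (adjusted p = 0.000134 and 0.000171), and at day 23 their folds of 1.26 and 1.46 missed the threshold (adjusted p = 0.0719 and 0.0509). Of 8 measured hepatocyte markers, 8 lay above the median level of all genes and 0 passed the test on any day (1 with an unadjusted p under 0.05 at day 9, 0 at days 3 and 23). Of all genes, 4.51%, 2.81% and 0.385% passed at days 3, 9 and 23. An unadjusted p under 0.05 was held by 18.3%, 16.8% and 13.9%.

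The promoters of the particle's structural protein and of its lipid loader are shown first because these genes share the assembly step and differed in their response. Both are from RefSeq, build GRCm38.p6, from 250 bases before to 50 after the start of the gene, read 5′ to 3′ on the strand of the gene. Apob lies at chr12:7977427-7977726 on the plus strand and Mttp at chr3:138143369-138143668 on the minus strand. Capitals mark a TATAAA match.
Apob: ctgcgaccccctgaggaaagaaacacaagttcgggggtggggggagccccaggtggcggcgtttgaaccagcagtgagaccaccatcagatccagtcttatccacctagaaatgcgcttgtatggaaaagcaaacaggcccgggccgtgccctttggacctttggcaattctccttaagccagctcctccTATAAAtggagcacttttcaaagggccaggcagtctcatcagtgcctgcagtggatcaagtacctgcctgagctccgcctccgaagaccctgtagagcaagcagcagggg
Mttp: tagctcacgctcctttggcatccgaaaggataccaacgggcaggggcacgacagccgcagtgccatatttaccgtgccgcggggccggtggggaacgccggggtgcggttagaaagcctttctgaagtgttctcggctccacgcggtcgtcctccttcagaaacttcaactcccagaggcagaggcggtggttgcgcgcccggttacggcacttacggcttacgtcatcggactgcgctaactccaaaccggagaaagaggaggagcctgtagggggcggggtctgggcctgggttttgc
The match in Apob begins 60 bases before the annotated start. On either strand, TATAAA was found in at least 1 promoter of 4 of the 9 members with a promoter sequence (Apob, Apoa5, Apoe and Pltp). It was in 13.6% of 32851 promoters of the same length, and was added after the values were seen. For each motif a member counted if any of its annotated starts matched, while the percentages are of single promoters, so these are unlike measures. The Apoe matches lie at only 1 of its starts, and the Pltp match begins 36 bases after the start. AGGTCA, an element that nuclear receptors bind, was in 1 of the 9 (Lipc) against 16.3% of all promoters, and CAAAGTC, a core of the element bound by HNF4, in 0 of 9 against 4.44%. These are matches of letters only; the different motifs share no bases in these windows, while the 2 TATAAA matches of Apoe, on opposite strands, overlap.

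Apob, the structural apolipoprotein of very low and low density lipoprotein, was read from probe set 1455593_at. At day 3 the antimiR mice had log2 levels of 12.23, 12.11 and 12.01 and the saline mice 12.38, 12.05 and 12.06. These groups lay across each other. At day 9 the antimiR mice had 13.26, 12.93 and 13.31 and the saline mice 12.11, 12.62 and 11.82. Every treated mouse was above every saline mouse, and the saline mouse at 12.62 lay nearest to the treated range. At day 23 the levels were 13.24, 13.69 and 13.47 in antimiR mice and 12.82, 13.03 and 12.60 in saline mice, again with no overlap.

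The day 3 means of Apob were 12.12 ± 0.11 (SD, n = 3) in antimiR and 12.16 ± 0.19 in saline livers, a difference of -0.05 (SE 0.18, adjusted p = 0.931). At day 9 the means were 13.17 ± 0.20 and 12.18 ± 0.41, and Apob rose by 0.98 (SE 0.18, 95% interval 0.61 to 1.36, adjusted p = 0.00716). The day 23 means were 13.47 ± 0.23 and 12.82 ± 0.22, a difference of 0.65 (SE 0.18, 95% interval 0.28 to 1.02, unadjusted p = 0.00191, adjusted p = 0.0960). Averaged over the 3 days the difference was 0.53 (SE 0.10, adjusted p = 0.00271), which passed the test. In bulk liver RNA, more cells of a type and more RNA per cell cannot be told apart.

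**Figure D1:**
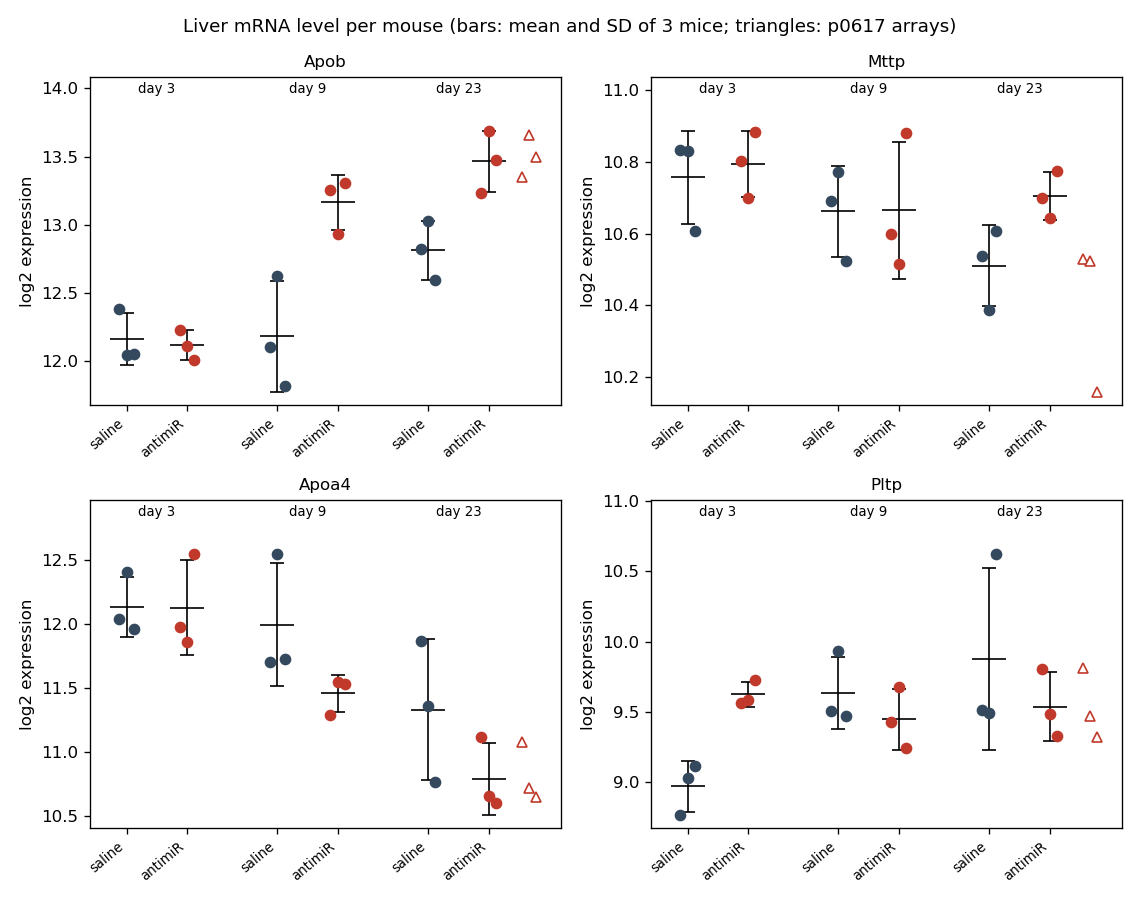
Log2 level of Apob, Mttp, Apoa4 and Pltp by mouse (points), with the mean and SD of 3 mice (bars), for antimiR and saline groups at days 3, 9 and 23; triangles are the p0617 arrays that repeat the antimiR mice of day 23 and enter no mean. The Apob points of the treated mice lie between 12.93 and 13.69 at days 9 and 23, above the saline mice of the same day, while these groups lie across each other at day 3.

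Ordered by level, the Apob groups began with antimiR day 3, saline day 3 and saline day 9, whose means of 12.12, 12.16 and 12.18 lay within 1 SD of each other. Saline day 23 (12.82), antimiR day 9 (13.17) and antimiR day 23 (13.47) followed. The SDs of the last 3 groups run from 0.20 to 0.23, so both steps among these 3 groups exceeded 1 SD. Between days 3 and 9 the saline mice differed by 0.02 (SE 0.18, adjusted p = 0.978). Saline mice at day 23 were read in the other array set, so day and set cannot be told apart for them.

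The Apob effect at day 9 exceeded that at day 3 by 1.03 (SE 0.25, unadjusted p = 0.000737), which did not pass over all genes (adjusted p = 0.117). It did without the saline day 9 mouse at 12.62, where that change was 1.25 (adjusted p = 0.0237). In 11 of the 12 fits that left out 1 array of these days it stayed uncalled (adjusted p up to 0.229). The effect at day 23 differed from that at day 9 by -0.33 (SE 0.25, adjusted p = 0.740) and from that at day 3 by 0.70 (SE 0.25, adjusted p = 0.324). A later onset and a decline after day 9 were therefore not established over all genes by these tests. Of all genes, 0.143%, 0.0055% and 0.302% passed those 3 tests, and 0 of the 9 members did; 2, 0 and 2 members had an unadjusted p under 0.05, against 11.6%, 8.69% and 10.3% of all genes.

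The treated mice of day 23 gave a technical check of Apob, since each was hybridised in both array sets. Their p0617 arrays read 13.35, 13.66 and 13.50, and the p0621 arrays differed from these by -0.12, 0.03 and -0.02. The median absolute difference over all genes was 0.11, 0.11 and 0.15 in the same mice, so Apob repeated about as well as a typical gene. With the p0617 arrays in their place, set against saline mice on p0621 arrays, the day 23 difference was 0.69 (adjusted p = 0.0662). With all 21 arrays and the mouse as a random block it was 0.67 and passed (adjusted p = 0.0278). That fit took a correlation of 0.244 between arrays of a mouse for every gene, and only treated mice had repeats. The repeats add no animals, so this pass does not establish the day 23 difference.

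A second Apob probe set, 1457554_at, was dimmer, with a mean of 7.67 against 12.65. At day 9 it read 7.95, 8.61 and 8.70 in antimiR and 6.84, 8.43 and 6.88 in saline mice. The saline mouse that was high on the brighter probe set was high here too, and the groups overlapped. Its differences were -0.07, 1.03 and 0.98 at days 3, 9 and 23, the last 2 as large as on the brighter probe set, with a wider SE of 0.48 and, over all probe sets, adjusted p = 0.335 at day 9 and 0.440 at day 23. At day 23 the treated mice read 7.08, 8.58 and 9.38 and the saline mice 7.69, 7.63 and 6.78, so the lowest treated mouse lay inside the saline range. On their p0617 arrays the same treated mice read 8.20, 8.80 and 9.37, the lowest of them above the 3 saline mice, which were read on p0621 arrays. With the mean of both probe sets the day 9 difference was 1.01 and lost its call (adjusted p = 0.104).

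**Figure D2:**
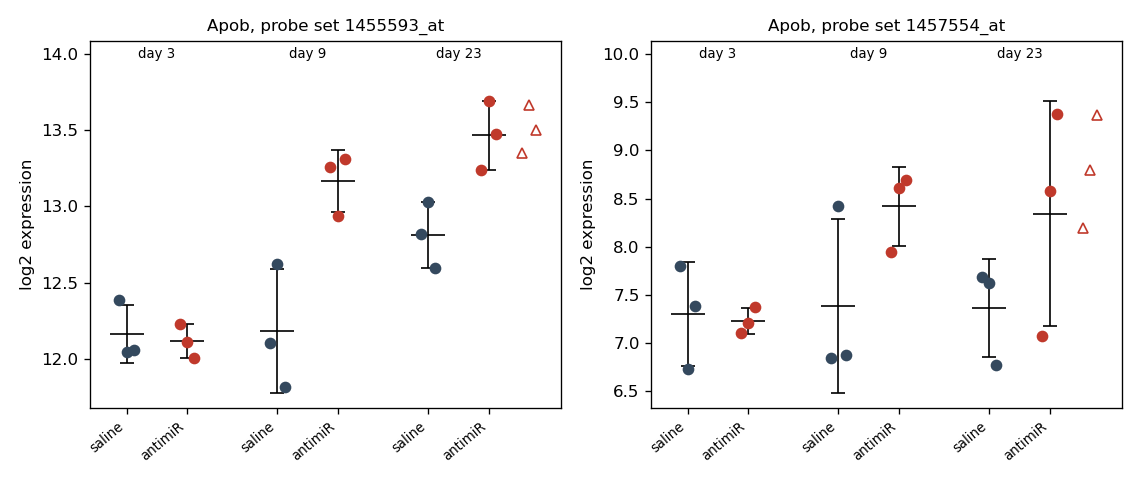
Log2 level of Apob by mouse on its brighter probe set 1455593_at and its dimmer probe set 1457554_at, for antimiR and saline groups at days 3, 9 and 23, with the mean and SD of 3 mice as bars and the p0617 arrays of the antimiR mice of day 23 as triangles. On both the treated mean is above the saline mean at days 9 and 23, and the spread between mice is wider on the dimmer one.

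Of the 2 control transcripts that report RNA quality, beta-actin moved with treatment at days 3 and 9. The log2 ratio of the 3′ to the 5′ probe set of beta-actin, which rises with RNA breakdown or short labelling, was 1.03 ± 0.02 in antimiR and 0.805 ± 0.045 in saline livers at day 3, and 1.14 ± 0.02 and 0.926 ± 0.060 at day 9. At day 23 it was 1.15 ± 0.16 and 1.16 ± 0.04. The antimiR mice of day 23 read 1.33, 1.08 and 1.04, and the mouse at 1.33 read 1.09 on its p0617 array. The same ratio of GAPDH was 0.117 ± 0.184 and 0.069 ± 0.187 at day 3, -0.064 ± 0.038 and 0.151 ± 0.156 at day 9, lower in antimiR livers, and 0.028 ± 0.025 and 0.115 ± 0.083 at day 23. With the beta-actin ratio as a covariate the Apob difference was 1.34 at day 9 (adjusted p = 0.0202), 0.63 at day 23 (adjusted p = 0.0777) and 0.33 at day 3, where the sign turned. At days 3 and 9 every treated mouse had a higher beta-actin ratio than every saline mouse. That fit therefore cannot cleanly separate treatment from the ratio on those days.

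Mttp, the lipid loader of apolipoprotein B, did not pass the test at any day. On its brighter probe set 1419400_at the antimiR mice of day 9 read 10.60, 10.52 and 10.88 and the saline mice 10.69, 10.77 and 10.52. These groups lay across each other, as did those of day 3, with antimiR mice at 10.80, 10.70 and 10.88 and saline mice at 10.83, 10.83 and 10.61. At day 23 the antimiR mice read 10.70, 10.64 and 10.78, above the saline mice at 10.54, 10.39 and 10.61. The Mttp differences were 0.04, 0.00 and 0.20 at days 3, 9 and 23 (SE 0.10 each; adjusted p = 0.899, 0.993 and 0.427), with a 95% interval of -0.22 to 0.22 at day 9 that leaves out a change as large as that of Apob on that day. The treated day 23 mice read 10.53, 10.52 and 10.16 on their p0617 arrays, where the p0621 arrays were higher by 0.17, 0.12 and 0.62. With the p0617 arrays the day 23 difference of Mttp was -0.11. The saline mice stayed on p0621 arrays in that fit, so drug and array set cannot be told apart in it. The second Mttp probe set, 1419399_at, gave 0.10, 0.24 and 0.14, the day 9 value with an unadjusted p of 0.0470 and adjusted p = 0.337.

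Apoa1, the protein that high density lipoprotein forms on, and Lcat, the plasma enzyme that esterifies cholesterol on that particle, were flat within narrow limits. Apoa1 read 14.55 to 14.71 over the 18 mice, near the upper end of the deposited values at 14.98, where arrays compress differences. Its differences were -0.06, -0.01 and -0.02 at days 3, 9 and 23 (SE 0.06 each). The 3 treated mice of day 3 lay below the saline mice, at a mean of 14.56 ± 0.02 against 14.63 ± 0.04, with adjusted p = 0.668. The other 3 Apoa1 probe sets gave -0.13 to -0.07 at day 3, -0.02 to 0.01 at day 9 and -0.02 to 0.00 at day 23. Lcat differed by -0.06, 0.04 and -0.06 (SE 0.08 each), and its 95% intervals lay between -0.22 and 0.21 on all 3 days.

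Pltp, the phospholipid transfer protein that moves surface lipid onto high density lipoprotein, had the largest difference of any member at day 3. The antimiR mice read 9.56, 9.58 and 9.73 and the saline mice 8.77, 9.03 and 9.12. All treated mice were above all saline mice, by 0.65 on average (SE 0.23, 95% interval 0.16 to 1.14, unadjusted p = 0.0119), yet the difference missed the threshold (adjusted p = 0.128) and passed it on the day 3 arrays alone (adjusted p = 0.0340). Its second probe set, 1417963_at, differed by 0.78 at day 3. At day 9 the antimiR mice read 9.43, 9.68 and 9.24 and the saline mice 9.51, 9.93 and 9.47, groups that overlapped with a difference of -0.19 (adjusted p = 0.741). The saline level itself was 8.97 ± 0.18 at day 3 and 9.64 ± 0.26 at day 9, a difference of 0.66 (SE 0.23, adjusted p = 0.115), so the antimiR mice of day 3 lay near the saline level of day 9. At day 23 the saline mice read 9.51, 9.49 and 10.62, and the difference of -0.34 (adjusted p = 0.567) became 0.04 without the saline mouse at 10.62.

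Markers of Kupffer cells and macrophages, which also make Pltp and Apoe, moved with Pltp at day 3. Of 12 measured markers, 7 passed the test as higher and 0 as lower (median difference 0.82), and their mean level ran from 9.14 to 9.76 in antimiR and from 8.04 to 9.04 in saline mice; 11 of the 12 lay above the median level of all genes. At days 9 and 23, 0 of 12 passed (5 and 2 with an unadjusted p under 0.05, against 16.8% and 13.9% of all genes). Beside these and the other marker counts, 2.63% of all genes were called higher at day 3 and 1.91% at day 9. Of 9 lymphocyte markers 3 (Ccl5, Gzma and Gzmb) were higher at day 3, and Cd3d, Cd3e, Cd3g, Cd79a and Cd79b were not called. The mean levels of the 9 were 5.52 to 5.93 in antimiR and 4.86 to 5.18 in saline mice. Only 2 of the 9 lay above the median level of all genes. Of 8 stellate cell markers 2 (Reln and Dcn) were higher at day 9, with mean levels of 7.72 to 7.89 against 7.47 to 7.63, and of 8 endothelial markers 1 (Clec4g) at days 3 and 9. Of 4 cholangiocyte markers 1 (Epcam) was higher at day 3, and 0 of the 4 lay above the median level of all genes. The part of these cells in the differences of Pltp, and of the other lists on the same days, was not tested.

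Apoa4, a triglyceride-responsive apolipoprotein of intestine and mouse liver, was on average lower after the antimiR at days 9 and 23. At day 9 the antimiR mice read 11.29, 11.55 and 11.53 and the saline mice 11.71, 12.55 and 11.73. The treated mice lay wholly below, and the saline mouse at 12.55 is the same animal that was highest for Apob in its group. At day 23 the antimiR mice read 11.12, 10.66 and 10.60 and the saline mice 11.87, 11.36 and 10.76, with overlap. At day 3 the levels were 11.98, 11.86 and 12.55 in antimiR and 12.04, 12.40 and 11.96 in saline mice, which lay across each other. The differences were -0.01, -0.54 and -0.54 (SE 0.26 each; adjusted p = 0.994, 0.317 and 0.377), and that of day 9 was -0.26 without the saline mouse at 12.55 and that of day 23 -0.27 without the saline mouse at 11.87. The mean over the days was -0.36 (SE 0.15, unadjusted p = 0.0297, adjusted p = 0.149), and it passed without the saline day 23 mouse at 10.76 (-0.45, adjusted p = 0.0485). In 17 of the 18 fits that left out 1 array this mean stayed uncalled (adjusted p up to 0.271). The second Apoa4 probe set, 1417761_at, gave -0.04, -0.60 and -0.72. Of 6 intestinal markers 0 passed the test at any single day (2, 1 and 2 with an unadjusted p under 0.05 at days 3, 9 and 23). Of all genes, 4.51%, 2.81% and 0.385% passed on those days, and 18.3%, 16.8% and 13.9% had such an unadjusted p. Vil1, Alpi, Cdx1 and Cdx2 lay below the median level of all genes and Fabp2 and Lgals4 above it, and Fabp2, an intestinal fatty acid binding protein, was higher in the mean of the days (0.37, adjusted p = 0.0202). Their part in the Apoa4 differences was not tested.

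Apoa5, which stimulates lipoprotein lipase, and Apoc3, which inhibits it, act on the same triglyceride-rich particles in opposite ways. Apoa5 read 12.84 to 13.37 over the 18 mice and differed by -0.11, 0.01 and -0.03 at days 3, 9 and 23 (SE 0.11 each). Apoc3 read 13.81 to 14.13 and differed by 0.05, -0.03 and -0.08 (SE 0.07 each). Treated and saline mice overlapped on all 3 days for both genes. The starts of Apoa1, Apoa4 and Apoa5 lie on chromosome 9 in the RefSeq table (GRCm38.p6), and on the brightest probe set of each only Apoa4 differed by more than 0.12 on any day.

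Apoe, the ligand through which remnant particles are taken up, read 14.43 to 14.54 over the 18 mice, near the upper end of the deposited values, where arrays compress differences. It differed by -0.01, -0.05 and -0.03 at days 3, 9 and 23 (SE 0.06 each; adjusted p = 0.946, 0.719 and 0.889). The treated mice lay below the saline mice at day 9 (14.47 ± 0.02 against 14.53 ± 0.02) and at day 23 (14.45 ± 0.01 against 14.48 ± 0.01). These are differences of under 0.06 that limma did not call. On their p0617 arrays the treated mice of day 23 read 14.49, 14.43 and 14.48. These overlap the saline mice at 14.47, 14.49 and 14.48, which were read on p0621 arrays.

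**Figure D3:**
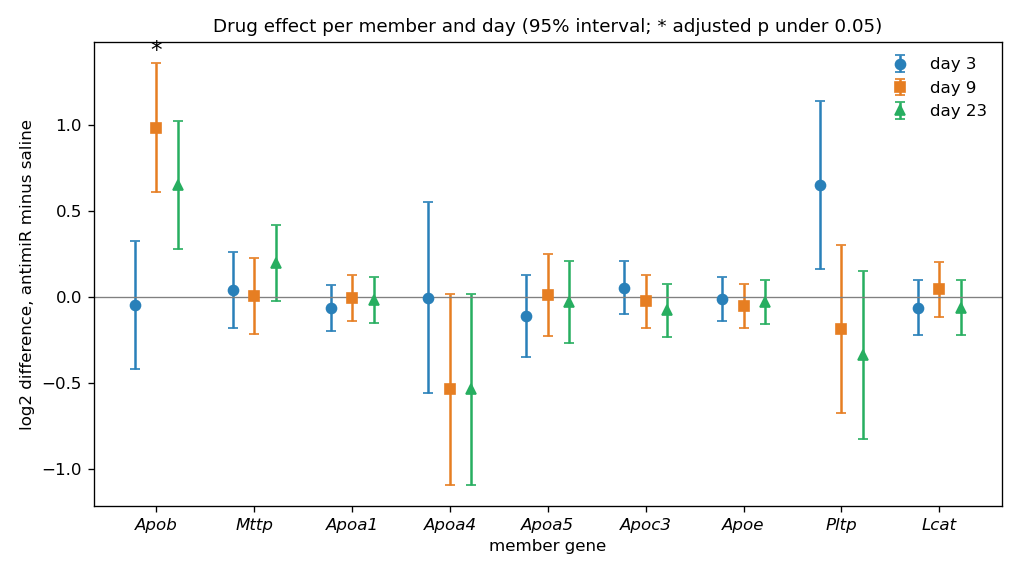
Log2 difference, antimiR minus saline, of the 9 measured members at days 3, 9 and 23, with 95% intervals from the fit and a star where the adjusted p is under 0.05. The only star is that of Apob at day 9, at 0.98. The intervals of Apoa1, Apoc3, Apoe and Lcat are narrow around 0. Apoa1 and Apoe lie near the upper end of the values, where arrays compress differences.

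Counted together, 0 of the 9 members passed the test at day 3, where 4.51% of all genes did, and 1 (Pltp) had an unadjusted p under 0.05, against 18.3% of all genes. At day 9, 1 of 9 (Apob) passed against 2.81% of all genes, and the same gene was the only one with an unadjusted p under 0.05, against 16.8%. At day 23, 0 of 9 passed against 0.385%, and 1 (Apob) had an unadjusted p under 0.05, against 13.9%. For the mean of the days 1 of 9 (Apob) passed against 11.6%, a share near that of all genes, and 2 (Apob and Apoa4) had an unadjusted p under 0.05, against 23.9%. Between saline mice of days 3 and 9, 0 of 9 passed against 5.88% (1 with an unadjusted p under 0.05, Pltp, against 18%). The treated and saline groups did not overlap for 2, 3 and 3 of the 9 members at days 3, 9 and 23, against 21.5%, 21.6% and 19.2% of all genes. The median difference of the members was -0.01, -0.01 and -0.03, beside 0.01, -0.02 and -0.02 over all genes.

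The 3 genes of the whole table whose profile over the 18 arrays lay closest to that of Apob, each centred on its own mean, were Msl2, Xrn1 and Dync1li1. Their root-mean-square differences from Apob were 0.19, 0.22 and 0.22 on the log2 scale, where Apob itself had an SD of 0.58 over the arrays. At day 9 they differed between antimiR and saline by 0.78, 0.79 and 0.97, and at day 3 by -0.17, 0.14 and -0.26. As the 3 genes were picked for closeness on these same arrays, this likeness follows from the choice. None is an apolipoprotein or a gene of the lists below.

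Among 12 other apolipoproteins, 1 was higher and 0 lower at day 3, where 2.63% of all genes were called higher and 1.88% lower. This was Apol7a, an apolipoprotein L family member (0.70, adjusted p = 0.00429). At day 9, 1 was higher and 1 lower, against 1.91% and 0.896% of all genes. Apoc2, the cofactor that lipoprotein lipase needs, rose by 0.47 (adjusted p = 0.0450), and Apon fell by 0.41 (adjusted p = 0.00450). At day 23, 0 passed, against 0.385% of all genes, and 3 had an unadjusted p under 0.05, against 13.9%. The smallest p was that of Apool, a mitochondrial protein, at -0.26 (adjusted p = 0.164). The median differences were 0.01, -0.02 and -0.04 at days 3, 9 and 23.

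Of 23 genes of particle assembly and secretion, 1 was higher at day 3 and 3 at day 9, with 0 lower on either day. Over all genes, 2.63% and 1.91% were called higher on those days, and 1.88% and 0.896% lower. An unadjusted p under 0.05 was held by 6 and 8 of the 23, against 18.3% and 16.8% of all genes. Lpcat3, which makes the polyunsaturated phospholipids of nascent particles, rose by 0.81 at day 3 (SE 0.13, adjusted p = 0.00107) and by 0.62 at day 9 (adjusted p = 0.0152). At day 9 Mia3, a receptor that loads bulky cargo into vesicles leaving the endoplasmic reticulum, rose by 0.54 (adjusted p = 0.0153), and Tmem41b, an endoplasmic reticulum lipid scramblase, by 0.73 (adjusted p = 0.0215). On day 23, 0 passed, against 0.385% of all genes, and 4 had an unadjusted p under 0.05, against 13.9%. Lpcat3 then stood at 0.56 (adjusted p = 0.0543). The list's medians were 0.04, 0.07 and 0.00.

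Apob mRNA is edited in mouse liver to encode the shorter apolipoprotein B. Of the 4 genes of that step 0 passed on any single day (2, 1 and 1 with an unadjusted p under 0.05 at days 3, 9 and 23). The shares over all genes on those days were 4.51%, 2.81% and 0.385% called, and 18.3%, 16.8% and 13.9% with such an unadjusted p. The smallest p at each day was that of Syncrip at day 3 (-0.33, adjusted p = 0.120), of Apobec1, the editing enzyme, at day 9 (0.44, adjusted p = 0.187) and of Rbm47, its cofactor, at day 23 (1.36, adjusted p = 0.262). The medians were -0.13, 0.33 and 0.07. Without the saline mouse of day 9 that was highest for Apob, Apobec1 was 0.68 and passed (adjusted p = 0.0238). In 5 of the 6 fits that left out 1 array of day 9 it stayed uncalled (adjusted p up to 0.487). In the mean of the days 1 of the 4 (Apobec1) passed as higher, where 11.6% of all genes passed in either direction. The array reads transcript level and not the edited base.

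Of 12 lipases and their regulators, 0 passed at day 3, against 4.51% of all genes. Here 4 had an unadjusted p under 0.05, against 18.3%. Angptl8, an inhibitor of lipoprotein lipase, stood at -0.87 (adjusted p = 0.0963). It passed without antimiR replicate 2 (-1.19, adjusted p = 0.0268). In 5 of the 6 fits that left out 1 array of day 3 Angptl8 stayed uncalled (adjusted p up to 0.318). At day 9, 1 was lower, against 0.896% of all genes: Lipa, the lysosomal acid lipase, fell by 0.35 (adjusted p = 0.0407). At day 23, 0 passed (3 with an unadjusted p under 0.05, against 13.9% of all genes). Lmf1, a factor that matures lipases, was at -0.40 (adjusted p = 0.0719). The medians were -0.16, 0.12 and -0.15.

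Among 12 receptors and uptake genes, only Vldlr, the very low density lipoprotein receptor, passed at day 3, where 4.51% of all genes did. It was higher by 3.97-fold (1.99, SE 0.50, adjusted p = 0.0308). That call was lost in 5 of the 6 fits that left out 1 array of day 3, all but the one without saline replicate 3 (1.69 to 2.19 in those 5), and with the mean of probe sets (1.31, adjusted p = 0.0518). At day 9, 0 passed (3 with an unadjusted p under 0.05, against 16.8% of all genes). Vldlr stood at -1.35 (adjusted p = 0.176), a change in effect of -3.33 that missed the threshold (adjusted p = 0.0724). On the arrays of day 9 alone Vldlr passed as lower (adjusted p = 0.0493). At day 23, 0 passed (4 with an unadjusted p under 0.05, against 13.9% of all genes). Sdc1, a heparan sulfate proteoglycan that binds remnants, was at 0.23 (adjusted p = 0.184). The medians were -0.03, -0.10 and -0.08.

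In the list of high density lipoprotein and cholesterol efflux, 0 of 11 passed at day 3, with Abcg5 at -0.34 (adjusted p = 0.134). Here 2 had an unadjusted p under 0.05, against 18.3% of all genes. At day 9, 4 were higher and 0 lower, against 1.91% and 0.896% of all genes. Abcg5 and Abcg8, the paired transporter that exports sterol into bile, rose by 0.65 (adjusted p = 0.0104) and 0.59 (adjusted p = 0.0350). Abca1, which loads lipid onto apolipoprotein A-I, rose by 0.37 (adjusted p = 0.0395), and Npc1, which moves cholesterol out of lysosomes, by 0.56 (adjusted p = 0.0376). By day 23, 0 passed (5 with an unadjusted p under 0.05, against 13.9% of all genes), with Abca1 at 0.34 (adjusted p = 0.0990). The medians were -0.05, -0.02 and 0.00. At day 9, 7 of the 11 had an unadjusted p under 0.05, against 16.8% of all genes. Only 5 of the 11 differences were positive that day, so the median near 0 joins differences in both directions.

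Of 29 transcription factors of these genes, coactivators and proteins that control them, 2 were higher and 1 lower at day 3, against 2.63% and 1.88% of all genes. An unadjusted p under 0.05 was held by 7 at day 3 and 8 at day 9, against 18.3% and 16.8%. Srebf1, the activator of fatty acid synthesis genes, fell by 0.82 (adjusted p = 0.00395), Foxo3, a forkhead factor, rose by 0.50 (adjusted p = 0.00749) and Tbx3, a factor of the liver zone around the central vein, rose by 0.99 (adjusted p = 0.0347). At day 9, 2 were higher and 0 lower, against 1.91% and 0.896% of all genes. Nr0b2, the small heterodimer partner that represses bile acid synthesis and can repress Mttp, rose 2.17-fold (adjusted p = 0.0296). Nr2f2, an orphan receptor that binds apolipoprotein promoters, rose by 0.84 (adjusted p = 0.0334). Nr0b2 was 0.73 without saline replicate 1 (adjusted p = 0.0910) and Nr2f2 0.38 with the mean of probe sets (adjusted p = 0.0502), both without a call. On day 23, 0 passed (8 with an unadjusted p under 0.05, against 13.9% of all genes), with Nr2f6 at -0.41 (adjusted p = 0.0755). The medians were 0.01, 0.07 and 0.04.

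Of these 18 calls at single days in the other lists, 17 were lost with the beta-actin ratio as a covariate, all 17 with the direction kept. The ratio moved with treatment on the days of these calls, so that fit cannot cleanly separate treatment from the ratio. For 13 of the 17 the difference stayed within 1.5 times its value (Vldlr 2.65, Nr0b2 1.41, Srebf1 -0.83 and Apol7a 0.67, for example), and for 4 it was smaller: Tbx3 0.58, Abcg5 0.42, Abcg8 0.32 and Mia3 0.32. Leaving out 1 array of the day ended 13 of the 18 calls, and the 5 that held were Lpcat3, Srebf1, Foxo3 and Apol7a at day 3 and Apon at day 9. Without antimiR replicate 1, 2 or 3 of day 9, 9, 6 and 9 of that day's calls were lost, and without saline replicate 1, 2 or 3, 8, 6 and 8. With the mean of probe sets Foxo3 was 0.31 (adjusted p = 0.0848) and Tbx3 0.48 (adjusted p = 0.0819), both without a call, and Tmem41b 0.33 (adjusted p = 0.0381). Lpcat3 at day 3 was the only one to keep its call under every alternative run. In the mean of the days 11.6% of all genes passed, and the lists were counted as higher and lower. The counts were 2 and 1 of 12 other apolipoproteins, 4 and 2 of 23 assembly genes and 1 and 0 of 4 editing genes. For lipases and for receptors they were 0 and 2 of 12 each. Efflux genes had 2 and 2 of 11, and the transcription factor list 5 and 2 of 29. These calls were not followed through the alternatives.

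**Figure D4:**
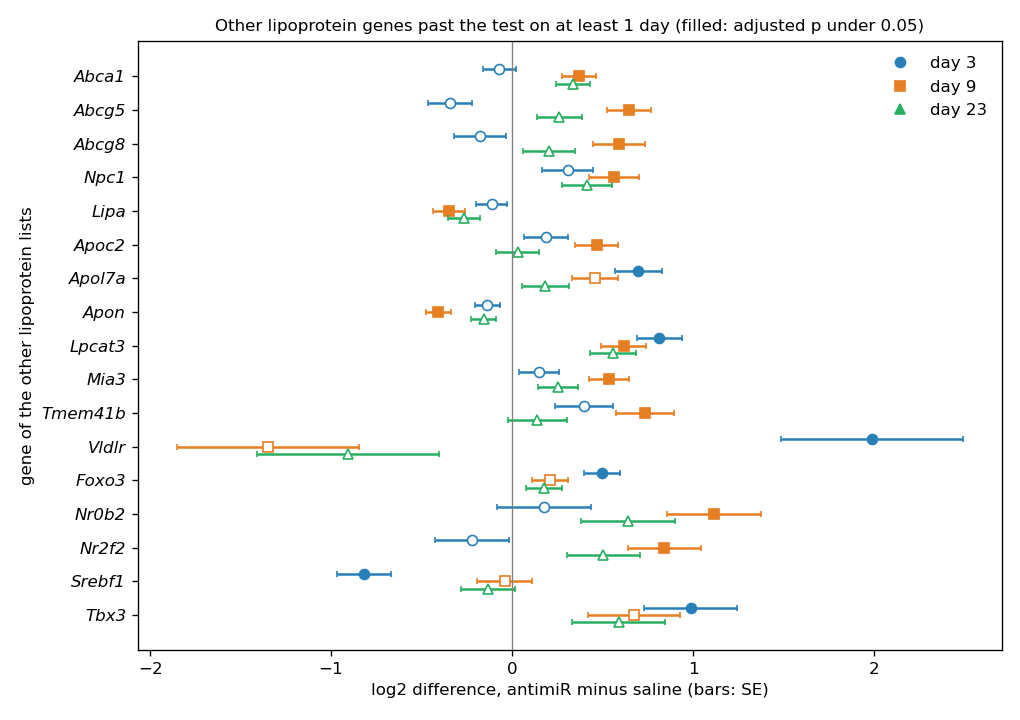
Log2 difference, antimiR minus saline, with its SE, of the 17 other lipoprotein genes that passed the test on at least 1 day, at days 3, 9 and 23; filled points have an adjusted p under 0.05. Filled points lie at days 3 and 9 and none at day 23, and Lpcat3 is filled at both.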

How the data were processed

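Total liver RNA, kept in RNAlater and extracted with Trizol per the labels' protocols, was labelled in 1 cycle. The authors deposited log2 expression per probe set made with RMA (background correction, quantile normalization, probe summary). The submitters' processing notes name RMA. Its version and the set of arrays it ran on were not given in the sources used here. RMA compresses differences at both ends of the range. They ran from 2.15 to 14.98, with array medians from 4.75 to 4.82; for arrays the number of mice limits the precision.

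Of 45101 probe sets, 34945 had 1 symbol in the platform annotation, 932 several, 9160 none, and 64 were controls. The probe set with the highest mean over 18 arrays (1 per mouse, p0621 for day 23) stood for a gene. Group means were fitted with limma 3.58.1 (lmFit, eBayes; R 4.3.3) in 1 fit of 6 groups with 12 residual and 4.85 prior degrees of freedom; two-sided p-values had Benjamini-Hochberg adjustment over 18193 genes. The fit was tested on simulated data. The labels call the mice biological replicates. Same-numbered mice of a day did not deviate together (correlations -0.137 to 0.076), so numbers were not taken as pairs. RefSeq's table (GRCm38.p6) gave names, with 34741 Entrez matches and 0 changed symbols, and promoters.

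The members, lists and tests were chosen with earlier results of these data known. Named were all members, each list's called genes or else its smallest p, Aldoa, Bckdk, and the 3 nearest profiles of a called member. Alternatives were a comparison's own arrays, quantile normalization, median centring, a filter at the median level, the mean of probe sets, each probe set tested by itself, eBayes with trend and robust prior, a block for the replicate number, the beta-actin 3′ to 5′ ratio as a covariate, all 21 arrays, the p0617 arrays, and each array left out. Python 3.11.15, pandas 2.3.3, matplotlib 3.10.9 and the R package data.table (version 1.17.8) were used.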

Additional observations from a re-analysis of the deposited data

How the results depend on the processing

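Apob at day 9 was higher under each alternative (0.98 to 1.34). It kept its call when any 1 array of that day was left out (0.80 to 1.20, adjusted p 0.00127 to 0.0392). It lost the call on that day's own arrays (adjusted p = 0.0632) and with the mean of probe sets (adjusted p = 0.104). Its mean over the days kept its call throughout. With the replicate number as a block, which the numbers do not support as pairing, Apob at day 9 was 0.98 (adjusted p = 0.0106) and the genes called at day 23 numbered 13, against 70; no call of a member changed.

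Genes called numbered 253, 132, 0 and 693 at day 3, day 9, day 23 and between saline days on own arrays, with 1, 0 and 1 members at day 3, day 9 and between saline days. With the beta-actin ratio they numbered 98 at day 3, 35 at day 9, 461 for the mean of the days and 593 between saline days. At day 23 they numbered 139 after quantile normalization, 43 after centring, 340 above the median level, 42 with every probe set, 210 with a trend, 179 with p0617 arrays and 259 with all 21 arrays, which called 1 member; the mean of probe sets called 0 members at day 9. Leaving out 1 array gave 435 to 876 genes at day 3, 176 to 390 at day 9, 3 to 72 at day 23 and 608 to 902 between saline days, 1 to 2 members for the mean of the days and 0 to 1 for the day 9 minus day 3 effect.

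No sign change touched a called value. After quantile normalization the values were 0.027 for Apoa4 at day 3, -0.0171 for Mttp and 0.0176 for Apoa1 at day 9, 0.0078 for Apoa1 at day 23 and -3e-04 for the Apoe change from day 9 to 23. Centring gave 0.0131 for Apoa1 at day 9, 0.0024 for the Mttp change from day 3 to 9 and -2e-04 for that of Apoe. The mean of probe sets gave 0.0503 for the Mttp change and 0.045 for Apool at day 23. The beta-actin ratio gave 0.33, 0.0263 and 0.0021 for Apob, Apoa5 and Apoe at day 3, -0.0156, 0.007 and -0.0227 for Mttp, Apoa1 and Lcat at day 9, 0.0444 and -0.067 for the means of Apoa5 and Pltp, and 0.15 and 0.0179 for the changes of Apoa4 and Pltp from day 9 to 23. The Apoa4 change was 0.0117 with all 21 arrays and 0.024 with p0617 arrays, which gave Mttp -0.11 at day 23, -0.0215 in the mean and -0.11 in the change. Leaving out 1 array gave -0.10 to 0.0645 for Apob at day 3, -0.037 to 0.0863 for Mttp at day 3, -0.22 to 0.13 for Apoa4 at day 3, -0.0166 to 0.10 for Apoc3 at day 3, -0.0313 to 0.0119 for Apoe at day 3, -0.0394 to 0.0011 for Apoc3 in the mean of days, -0.0221 to 0.17 for Pltp in the mean of days, -0.14 to 0.04 for Mttp in the day 9 minus day 3 effect, -0.10 to 0.078 for Mttp at day 9, -0.0317 to 0.0098 for Apoa1 at day 9, -0.0881 to 0.10 for Apoa5 at day 9, -0.0482 to 0.0008 for Apoc3 at day 9, -0.0387 to 0.0148 for Apoa1 in the day 23 minus day 9 effect, -0.28 to 0.27 for Apoa4 in the day 23 minus day 9 effect, -0.16 to 0.0783 for Apoa5 in the day 23 minus day 9 effect, -0.34 to 0.22 for Pltp in the day 23 minus day 9 effect, -0.20 to 0.20 for Apob in the saline day 9 minus day 3, -0.42 to 0.0049 for Apoa4 in the saline day 9 minus day 3, -0.0147 to 0.18 for Apoa5 in the saline day 9 minus day 3, -0.0117 to 0.0387 for Apoc3 in the saline day 9 minus day 3, -0.0453 to 0.0081 for Apoa1 at day 23, -0.15 to 0.0903 for Apoa5 at day 23, -0.53 to 0.0353 for Pltp at day 23. The cause of these changes was not tested.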
